A study of Homo sapiens with 6 samples.

Results

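Tight junction components were followed in HSC-4 cells, a human cell line established from an oral squamous carcinoma, after inhibition of γ-secretase. The 9 genes were chosen by name and matched by symbol to the Ensembl genes of the count tables: the claudins *CLDN1*, *CLDN4*, *CLDN7* and *CLDN12*, occludin (*OCLN*), the junctional adhesion molecule *F11R*, and the plaque proteins *TJP1*, *TJP3* and *CGN*. All 9 were found among 58884 genes. The 3 DAPT libraries came from cells given 50 μM DAPT for 24 h, and the 3 control libraries from cells that, by the study's methods, received the DMSO vehicle for 24 h. Both groups were the same line in the same serum-containing medium. The control count columns carry the letters GM, and the deposited design text names growth medium and no vehicle, so an effect of the vehicle and of DAPT cannot be told apart if these cells had no DMSO. HSC-4 is a single cell line, and nothing in the labels says whether the 3 libraries of a group came from separate cultures, so p-values measure only the spread between these libraries, which may be technical.

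Tight junctions seal the space between neighbouring epithelial cells near their apical side. Claudins form the paired strands that set which ions and solutes pass, occludin and its tetraspan relatives join these strands, and junctional adhesion molecules bridge the membranes with immunoglobulin domains. The cytoplasmic plaque proteins ZO-1 (*TJP1*), ZO-3 (*TJP3*) and cingulin (*CGN*) tie the strands to actin. In stratified epithelium such as oral mucosa, tight junctions are mainly a feature of the upper, differentiating layers. DAPT blocks γ-secretase, the protease that frees the intracellular domain of Notch receptors, and Notch takes part in the differentiation of such epithelia.

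The total counts lay between 12276313 and 16317672 per library, and 3 counts, taken as the smallest signal, equalled between 0.184 and 0.244 CPM (reads scaled to a common library total). This limit covers counting error only. The Notch target genes *HES1* and *HEY1* fell with DAPT, by 0.77 and 1.98 on the log2 scale. Control replicate 1 stood apart. The summed level of 6 fibroblast genes was 553 CPM there, between 57.2 and 58.3 CPM in the other control libraries and between 50.0 and 55.2 CPM in the DAPT libraries. *COL1A2* had 3452 reads in control replicate 1 and at most 28 in any other library, and *DCN* had 329 against at most 2. *COL1A1* was also highest there, at 4392 reads, but had 652 to 746 reads in every other library and made up most of their sums. *LUM* had 106 reads there and 17 to 24 in the others. All 6 fibroblast genes had reads in at least 1 library. The part of these transcripts in the results was not tested, and the values of the 9 genes and the counts of each gene group are also given without control replicate 1. All 7 squamous epithelial markers were detected, at a summed 4706 to 4879 CPM in the control and 2885 to 3039 CPM in the DAPT libraries, with *KRT14* at no more than 49 reads in any library. In the DAPT libraries *KRT5*, *KRT14*, *KRT17*, *KRT6A* and *TP63* lay below every control value, while *EPCAM* and *CDH1* lay above, and the part of these differences in the results was not tested. Reads that map to several places were not counted, which can lower a gene with close copies such as *KRT14*. The 5 endothelial genes summed to at most 2.99 CPM. The 5 immune genes summed to at most 12.9 CPM, with *CD3E* at 0 in every library.

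Of the 9 genes, 5 were higher with DAPT and 0 were lower in edgeR's quasi-likelihood comparison of 15001 genes, with the threshold at an adjusted p of 0.05. Of all tested genes, 35.2% passed in either direction, 17.2% as higher and 18% as lower. The genes that rose were *OCLN*, *TJP3*, *TJP1*, *CLDN12* and *CGN*, and the rise reached a doubling in 0 of them. *CGN* passed narrowly and *CLDN4*, with a larger log2 fold change, narrowly did not. No difference between the kinds of gene was tested. At an unadjusted p under 0.05, 6 genes were higher and 0 lower in edgeR, where 22.2% of all tested genes were higher. DESeq2 called 4 higher and 0 lower, and 5.63% of the 29228 genes given to it, unfiltered, were higher. limma-voom called 5 higher and 0 lower, and 17.0% of all tested genes were higher. The DAPT and control libraries did not overlap in 5 of the 9 genes, where 46.3% of all tested genes did not overlap. The median log2 fold change of the 9 was 0.16, against 0.01 for all tested genes. Without control replicate 1, 4 of the 9 were higher, and the median was 0.11. In that fit 18% of all tested genes were higher. The count was 3 without control replicate 2, control replicate 3 or DAPT replicate 2, where *CLDN12* and *CGN* did not pass and 12.4% to 12.9% of all tested genes were higher. The genes were chosen with earlier results of these data known, so these counts describe them and are no test of the group.

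**Figure D1:**
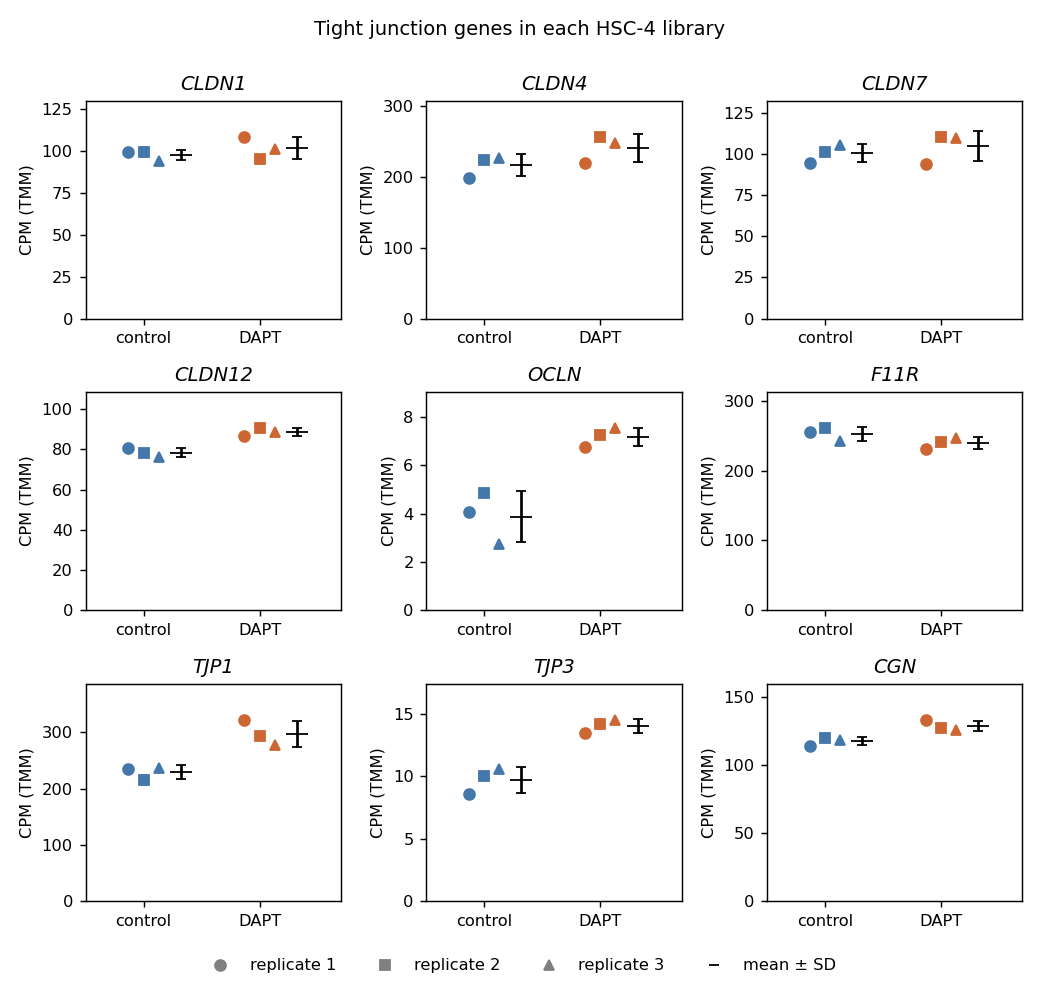
TMM-normalized CPM of the 9 tight junction genes in each library, on axes that start at 0. Marker shapes stand for replicate numbers and bars for mean ± SD (n = 3). The DAPT values lie above every control value in *CLDN12*, *OCLN*, *TJP1*, *TJP3* and *CGN*, while the groups overlap in the other 4 genes.

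Occludin, a tetraspan protein of the junction strands, showed the largest log2 fold change of the 9. *OCLN* (chromosome 5 of GRCh38, 69492292 to 69558104, plus strand) was at 4.05, 4.84 and 2.73 CPM in control replicates 1 to 3 and at 6.76, 7.24 and 7.53 CPM with DAPT. The groups were clearly apart, although the gene was weak, with 33 to 67 reads per control library and 98 to 104 per DAPT library. The log2 fold change was 0.87 ± 0.17 (SE), or 1.83-fold, with a 95% interval from 0.52 to 1.22 (adjusted p = 0.000339, edgeR with Benjamini-Hochberg adjustment). It was 0.89 without control replicate 1 (adjusted p = 0.000462). A pseudogene copy, *OCLNP1*, lies on the same chromosome and had 0 reads in all 6 libraries. Reads that match both copies equally were not counted, so the level of *OCLN* is uncertain and may be understated.

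The plaque genes all rose. *TJP1*, the scaffold ZO-1 that binds claudins through its PDZ domains (chromosome 15, 29699367 to 29968865, minus strand), was at 235, 215 and 237 CPM in the control and 322, 293 and 277 CPM in the DAPT libraries. Every DAPT library lay above every control library. The increase on the log2 scale was 0.38 ± 0.06 (SE), or 1.30-fold (adjusted p = 2.61e-05, edgeR), and 0.40 without control replicate 1 (adjusted p = 1.65e-05). *TJP1* had the smallest p-value of the 9 genes.

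*TJP3*, the related scaffold ZO-3 (chromosome 19, 3708362 to 3750813, plus strand), was at 8.59, 10.04 and 10.6 CPM in the control and 13.4, 14.2 and 14.5 CPM in the DAPT libraries. It was a weak gene like *OCLN*, and its groups did not overlap either. Its log2 fold change was 0.53 ± 0.11 (SE), or 1.45-fold (adjusted p = 0.000562, edgeR). The lowest of the 6 values was that of control replicate 1, and without it the log2 fold change was 0.45 (adjusted p = 0.00281).

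*CGN*, cingulin, which links the ZO proteins to actomyosin (chromosome 1, 151510510 to 151538692, plus strand), was at 114, 120.0 and 119 CPM in the control and 133, 128 and 126 CPM in the DAPT libraries. The groups were apart, by a small margin. On the log2 scale the change was 0.13 ± 0.05 (SE), or 1.10-fold, just past the threshold (adjusted p = 0.0436, edgeR). This call was lost without control replicate 1, with a log2 fold change of 0.11 (adjusted p = 0.0683), and it was kept in 3 of 13 alternative analyses. It was lost in each of the 6 fits without a library, with adjusted p-values from 0.0618 to 0.121.

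The 4 claudins had log2 fold changes from 0.058 to 0.17. *CLDN12* (chromosome 7, 90383721 to 90513402, plus strand), a claudin without the usual PDZ-binding end, was at 80.5, 78.4 and 76.4 CPM in the control and 86.5, 90.5 and 88.8 CPM in the DAPT libraries. It was the claudin of the 4 whose groups were apart. It rose by 0.17 ± 0.05 (log2, SE), or 1.13-fold (adjusted p = 0.0139, edgeR), and 0.19 without control replicate 1 (adjusted p = 0.00544). The call was lost when control replicate 2 (adjusted p = 0.0511), control replicate 3 (0.0783) or DAPT replicate 2 (0.0644) was left out. Exons of other genes on the same strand covered 16.4% of its exonic bases, and reads there were not counted.

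*CLDN4*, a sealing claudin that is abundant in many carcinomas (chromosome 7, 73799542 to 73832693, plus strand), was at 199, 224 and 226 CPM in the control and 219, 256 and 248 CPM in the DAPT libraries. In both groups replicate 1 was the lowest, and DAPT replicate 1 fell among the control values. The log2 fold change was 0.16 with a 95% interval from 0.025 to 0.29, and the adjusted p of 0.0594 in edgeR's test did not pass. It passed in 4 of 13 alternative analyses, among them scaling by library size alone (0.20, adjusted p = 0.0166) and the fit with the replicate number as a block (0.15, adjusted p = 0.0182). It was 0.098 without control replicate 1 (adjusted p = 0.183).

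*CLDN1*, whose loss opens the epidermal water barrier in mice (chromosome 3, 190305707 to 190322446, minus strand), was at 99.2, 99.0 and 93.7 CPM in the control and 108, 94.98 and 101 CPM in the DAPT libraries. Its log2 fold change of 0.060 had a 95% interval from -0.056 to 0.18 (adjusted p = 0.435, edgeR). *CLDN7* (chromosome 17, 7259903 to 7263983, minus strand), which is also found along the lateral membrane, was at 94.7, 101 and 105 CPM in the control and 94.1, 110.2 and 109 CPM in the DAPT libraries. Its log2 fold change was 0.058, with an interval from -0.071 to 0.19 (adjusted p = 0.5, edgeR). In both genes the groups overlapped, and the log2 fold changes without control replicate 1 were 0.076 and 0.017. For *CLDN7*, an overlapping gene shared 10.8% of the exonic bases.

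*F11R*, which encodes the adhesion molecule JAM-A, was the only 1 of the 9 with a negative value. The gene (chromosome 1, 160995211 to 161021343, minus strand) was at 256, 261 and 242 CPM in the control and 231, 241 and 247 CPM in the DAPT libraries, so the groups overlapped. Its log2 fold change was -0.077, with an interval from -0.18 to 0.026 (adjusted p = 0.244, edgeR), and -0.068 without control replicate 1. Another gene annotated on that strand covered 36.6% of the exonic bases of *F11R*. It held at most 6 reads per library, and reads in the shared bases were not counted, so the level of *F11R* is understated.

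**Figure D2:**
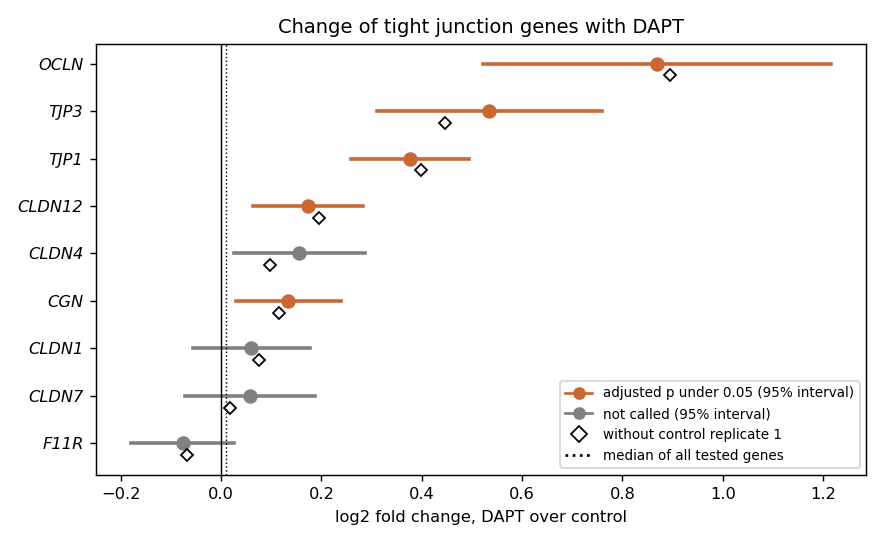
Log2 fold change (DAPT over control) of the 9 genes with 95% intervals from edgeR's fit of all 6 libraries; open diamonds give the value without control replicate 1. *OCLN*, *TJP3* and *TJP1* lie furthest to the right at 0.87, 0.53 and 0.38, and the intervals of *CLDN1*, *CLDN7* and *F11R* include 0.

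Levels of different genes were compared per kilobase of counted exon (RPKM). In the control libraries the order was *F11R* at 50.0 ± 1.90 RPKM, *CLDN4* at 46.0 ± 3.29, *CLDN7* at 40.3 ± 2.17, *CLDN1* at 26.8 ± 0.864, *TJP1* at 20.3 ± 1.06, *CGN* at 17.8 ± 0.440, *CLDN12* at 11.7 ± 0.304, *TJP3* at 2.46 ± 0.261 and *OCLN* at 0.573 ± 0.157 RPKM (SD, n = 3). The control values of *F11R* and *CLDN4* overlapped, as did those of *CLDN4* and *CLDN7*. No other neighbours in this order overlapped. With DAPT, *CLDN4* came first at 51.3 ± 4.15 RPKM and *F11R* next at 47.4 ± 1.6 RPKM, again with overlapping values. *TJP1* at 26.4 ± 2.02 RPKM then overlapped *CLDN1* at 28.0 ± 1.81 RPKM, as it had not in the control libraries. The exon length is that of all annotated transcripts of a gene together, so a gene with long unused exons is understated on this scale. Reads in exonic bases shared with other genes were not counted, while those bases stay in the length. They made up 36.6% for *F11R*, 16.4% for *CLDN12*, 10.8% for *CLDN7* and 0% for *CLDN4*. The levels of *F11R*, *CLDN12* and *CLDN7* may therefore be understated, and the order of *F11R*, *CLDN4* and *CLDN7* is uncertain in both groups. The genes with the lowest levels, *OCLN* and *TJP3*, were also those with the largest fold changes, and their counts carry the widest intervals.

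**Figure D3:**
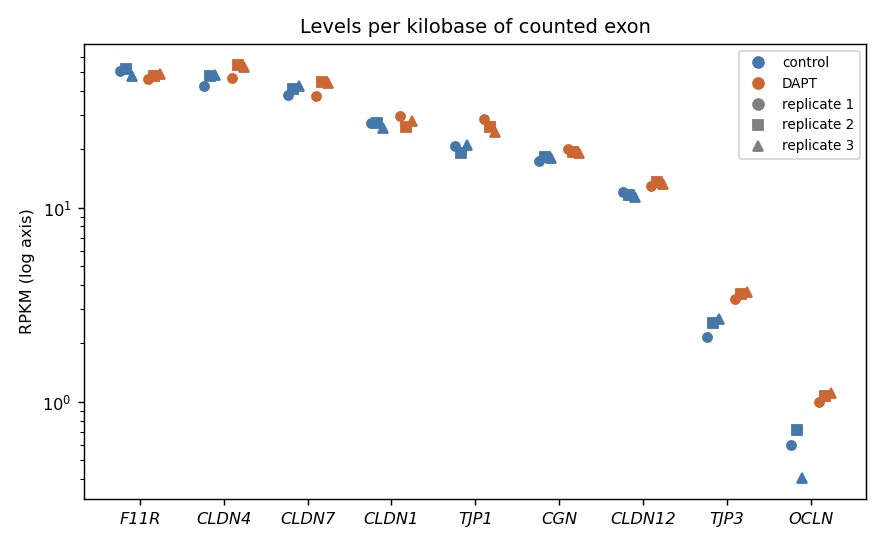
RPKM of the 9 genes in each library on a log axis, ordered by the control mean. *F11R*, *CLDN4* and *CLDN7* lie near the top, between 37.7 and 54.5 RPKM in every library, and *TJP3* and *OCLN* lie below 3.67 RPKM in every library.

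Across the whole claudin family, the 4 claudins made up most of the signal. The 24 claudin genes in the tables summed to 136 ± 4.77 RPKM in the control and 147 ± 5.81 RPKM in the DAPT libraries (SD, n = 3), of which the 4 held 125 ± 4.58 and 134 ± 6.40 RPKM. As shares of the claudin sum, *CLDN4* averaged 33.9% in the control and 34.7% in the DAPT libraries, *CLDN7* 29.7% and 28.4%, *CLDN1* 19.8% and 19.0%, and *CLDN12* 8.64% and 8.96%. The largest share outside the 4 was that of *CLDN15*, a claudin that forms cation pores, at 3.94% in the control and 5.15% in the DAPT libraries. The shares of the 4 overlapped between the groups, and those of *CLDN15* did not. Nor did the smaller shares of *CLDN9*, *CLDN11*, *CLDN16* and *CLDN22*, or that of *CLDN6*, which had 2 to 5 reads per library. No test was made of these shares, and those of *CLDN7* and *CLDN12* may be understated, as reads in shared bases were not counted. *CLDN5*, *CLDN14*, *CLDN17*, *CLDN19*, *CLDN20* and *CLDN25* had 0 reads in every library, which allows up to 3 reads each.

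Sequences upstream of transcription start sites are shown for genes with a match to a motif of a factor tied to Notch or to epithelial state. RefSeq start sites on GRCh38.p14 were given for 8 of the 9 genes, with 14 windows of 300 bases, each from 250 bases before to 50 bases after a start. *F11R* was not among them. The letters searched on both strands were TGGGAA, bound by RBPJ, the DNA-binding partner of Notch, CAGGTG, an E-box bound by SNAI and ZEB repressors, and AACCGGTT, bound by Grainyhead-like factors. TGGGAA was in 3 of the 14 windows, of *CLDN7*, *CLDN12* and *OCLN*, and in 24.03% of all 35116 windows of the same length. CAGGTG was in 5 of the 14 windows, of *CLDN7*, *OCLN*, *TJP1* and *TJP3*, and in 20.59% of all windows. AACCGGTT was in 0 of the 14 windows and 0.13% of all windows. The 2 windows of *OCLN* share bases. The 250 bases before a start are printed for *OCLN*, *TJP1*, *TJP3* and *CLDN12*, which rose, and for *CLDN7*, which held the most E-box matches and was not called. Capitals mark the RBPJ and E-box letters or their reverse complements.
OCLN chr5:69492297-69492546 (+ strand): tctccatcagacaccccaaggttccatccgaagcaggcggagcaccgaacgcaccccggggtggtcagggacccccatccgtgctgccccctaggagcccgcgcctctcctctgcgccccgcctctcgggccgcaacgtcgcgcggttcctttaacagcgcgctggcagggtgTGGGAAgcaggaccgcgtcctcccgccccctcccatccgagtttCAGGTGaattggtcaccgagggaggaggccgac
TJP1 chr15:29969050-29969299 (- strand): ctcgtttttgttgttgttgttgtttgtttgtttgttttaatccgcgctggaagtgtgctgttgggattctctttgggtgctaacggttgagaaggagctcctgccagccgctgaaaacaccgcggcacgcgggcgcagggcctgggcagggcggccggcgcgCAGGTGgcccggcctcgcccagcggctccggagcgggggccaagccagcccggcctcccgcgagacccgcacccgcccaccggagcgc
TJP3 chr19:3721487-3721736 (+ strand): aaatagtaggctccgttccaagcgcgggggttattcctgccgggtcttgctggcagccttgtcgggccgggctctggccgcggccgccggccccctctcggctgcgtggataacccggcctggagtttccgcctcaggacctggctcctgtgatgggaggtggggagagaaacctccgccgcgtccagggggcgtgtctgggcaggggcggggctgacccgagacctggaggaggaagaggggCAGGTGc
CLDN12 chr7:90403211-90403460 (+ strand): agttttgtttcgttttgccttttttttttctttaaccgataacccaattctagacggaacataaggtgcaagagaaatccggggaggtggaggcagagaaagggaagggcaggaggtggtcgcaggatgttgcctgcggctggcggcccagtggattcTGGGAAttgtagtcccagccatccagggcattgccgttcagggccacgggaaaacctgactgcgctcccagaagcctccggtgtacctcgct
CLDN7 chr17:7262479-7262728 (- strand): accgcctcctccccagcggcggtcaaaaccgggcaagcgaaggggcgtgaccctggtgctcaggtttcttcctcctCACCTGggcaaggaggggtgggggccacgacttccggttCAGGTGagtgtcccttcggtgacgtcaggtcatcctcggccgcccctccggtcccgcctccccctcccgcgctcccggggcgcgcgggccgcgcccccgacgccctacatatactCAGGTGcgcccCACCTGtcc
In these lines *OCLN* holds TGGGAA at 77 and CAGGTG at 33 bases before the start, *TJP1* holds CAGGTG at 88 and *TJP3* at 7 bases before it, and *CLDN12* holds TGGGAA at 92 bases before it, with a further match across the start that is not shown in capitals. The window shown for *CLDN7* holds 4 E-box matches in the 250 bases. Matches occurred both in genes that rose and in a gene that was not called. *CGN*, which rose, had no match to any of the 3 motifs, and neither did *CLDN1* or *CLDN4*, which were not called. The other windows of *TJP1* and *TJP3* held none. The matches describe these letters only and say nothing of binding. The share of G and C in the 14 windows was 35.7% to 75.3%, against a median of 58.7% over all windows.

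Among other genes of the tight junction and its regulation, listed from general knowledge and without transcription factors, 52 of 71 passed the filter on low counts, 17 of them were higher and 7 lower with DAPT. Their median log2 fold change was 0.083, and without control replicate 1 it was 0.063, with 17 higher and 8 lower. Over all tested genes, 17.2% were higher and 18% lower, and 18% and 19.1% without that library. Calls were lost for 9 of the 24 called genes of these lists in at least 1 fit without a library. The named ones are given with the libraries concerned. *MARVELD2*, which encodes tricellulin, the occludin relative at corners where 3 cells meet, was at 55.6, 51.1 and 48.3 CPM in the control and 72.5, 70.7 and 69.5 CPM in the DAPT libraries. It rose by 0.45 ± 0.06 (log2, SE; adjusted p = 7.55e-06, edgeR), and *ILDR1*, an angulin that recruits it, by 0.30 (adjusted p = 0.0339). The call for *ILDR1* was lost without control replicate 2 (adjusted p = 0.151), control replicate 3 (0.11), DAPT replicate 2 (0.11) or DAPT replicate 3 (0.0731). In this group 2 of 4 tested genes were higher and 0 lower, with or without control replicate 1.

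The other claudins were weak, with 6 of 20 tested, 2 higher and 2 lower, where 17.2% of all tested genes were higher and 18% lower. Of the 6, 2 were higher and 0 lower without control replicate 1 in edgeR's test, beside 18% and 19.1% of all tested genes. *CLDN15* rose by 0.51 (adjusted p = 0.000789, edgeR) and *CLDN9* by 0.49 (adjusted p = 0.034). *CLDN16* (-1.01, adjusted p = 0.0454) and *CLDN11* (-0.73, adjusted p = 0.0165) were lower in edgeR's test, but both calls were lost without control replicate 1 (-0.75, adjusted p = 0.21, and -0.52, adjusted p = 0.105). The call for *CLDN16* was also lost without control replicate 2 (adjusted p = 0.053), DAPT replicate 1 (0.142) or DAPT replicate 2 (0.173), that for *CLDN11* without DAPT replicate 3 (0.0632), and that for *CLDN9* without control replicate 3 (0.173), DAPT replicate 2 (0.11) or DAPT replicate 3 (0.0723). *CLDN16* and *CLDN11* had their most reads in control replicate 1, the library with the largest total count and the highest fibroblast sum. Their CPM was highest there too, at 1.43 and 4.17. The part of fibroblast transcripts in these values was not tested. *CLDN11* had 67 reads there and 32 and 44 in the other control libraries. Exons of another gene cover 18.3% of its exonic bases.

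Of 7 other junctional adhesion proteins, of the immunoglobulin type but for the Popeye-domain protein *POPDC1*, 4 were tested, and 1 was higher and 1 lower with or without control replicate 1. The shares of all tested genes were 17.2% higher and 18% lower, and 18% and 19.1% without that library. *CXADR*, the coxsackievirus and adenovirus receptor, rose by 0.39 (adjusted p = 0.000299, edgeR). Its relative *CLMP* fell from 26.3, 20.5 and 17.4 CPM in the control to 11.2, 10.8 and 14.0 CPM in the DAPT libraries, with a log2 fold change of -0.85 (adjusted p = 0.000674) and of -0.67 without control replicate 1 (adjusted p = 5.48e-05).

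Among 15 plaque and scaffold genes, all tested, 5 were higher and 1 lower, and the median log2 fold change was 0.16. The counts were 6 and 2 without control replicate 1, with a median of 0.11. Over all tested genes, 17.2% were higher and 18% lower, and 18% and 19.1% without that library. *AMOT*, angiomotin, rose by 0.62 (adjusted p = 0.0359, edgeR) and its relative *AMOTL2* by 0.31 (adjusted p = 0.000209). *ARHGEF2*, a RhoA exchange factor held at junctions by cingulin, rose by 0.34 (adjusted p = 0.000339), and the multi-PDZ protein *PATJ* by 0.24 (adjusted p = 0.00155). *AMOT* was weak, at 22 to 50 reads. Without control replicate 1 it rose by 0.95 (adjusted p = 0.00345), and its call was lost without control replicate 2 (0.173), control replicate 3 (0.118), DAPT replicate 2 (0.13) or DAPT replicate 3 (0.0714). The gene that fell was *YBX3* (-0.20), a ZO-1 partner, named after its value was seen.

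In the polarity complexes that place the junction, 4 of 12 tested genes were higher and 2 lower, and 3 and 3 without control replicate 1. The shares of all tested genes were 17.2% higher and 18% lower, and 18% and 19.1% without that library. *LLGL2* rose by 0.35 (adjusted p = 0.0071, edgeR) and *LIN7C* by 0.33 (adjusted p = 0.000335), while *PARD6G*, an adaptor of atypical protein kinase C, fell by 0.60 (adjusted p = 4.81e-05) and the small GTPase *CDC42* by 0.32 (adjusted p = 0.000123). Without control replicate 1 the value of *LLGL2* was 0.22 (adjusted p = 0.0184). Among genes of contractility, traffic and membrane proteases, 3 of 11 were higher and 1 lower, and 3 and 2 without control replicate 1. *WNK4*, a kinase that phosphorylates claudins, rose by 0.46 (adjusted p = 0.00356), *ROCK1*, a kinase of actomyosin tension, by 0.16 (adjusted p = 0.0244), and *SPINT1*, an inhibitor of matriptase, by 0.15 (adjusted p = 0.0268). *RHOA*, the GTPase upstream of *ROCK1*, fell by 0.26 (adjusted p = 0.000129). The call for *SPINT1* was lost without control replicate 1 (0.10, adjusted p = 0.0762), DAPT replicate 1 (0.0844) or DAPT replicate 2 (0.0724), and that for *ROCK1* without control replicate 2 (0.117), control replicate 3 (0.0957), DAPT replicate 1 (0.0666) or DAPT replicate 3 (0.105).

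Of 11 tested transcription factors tied to junction genes or epithelial state, 4 were higher and 3 lower, and 3 and 3 without control replicate 1. Over all tested genes, 17.2% were higher and 18% lower, and 18% and 19.1% without that library. *KLF4*, a factor of the epidermal barrier, was at 13.1, 12.9 and 12.9 CPM in the control and 22.3, 23.5 and 22.1 CPM in the DAPT libraries, a log2 fold change of 0.81 ± 0.09 (SE; adjusted p = 2.17e-07, edgeR). *ELF3*, an epithelial ETS factor, rose by 0.62 (adjusted p = 2.72e-08) and *TFAP2A* by 0.54 (adjusted p = 1.14e-07). *GRHL3*, a Grainyhead-like factor of the upper epidermis, was weak and fell by 1.15 (adjusted p = 0.000578), with 33 to 49 reads per control library and 15 to 22 per DAPT library. Its relative *GRHL2*, known to drive claudin genes and named after its value was seen, had a log2 fold change of 0.09 with an interval from -0.019 to 0.19. Without control replicate 1 these 4 called genes kept their direction and call.

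**Figure D4:**
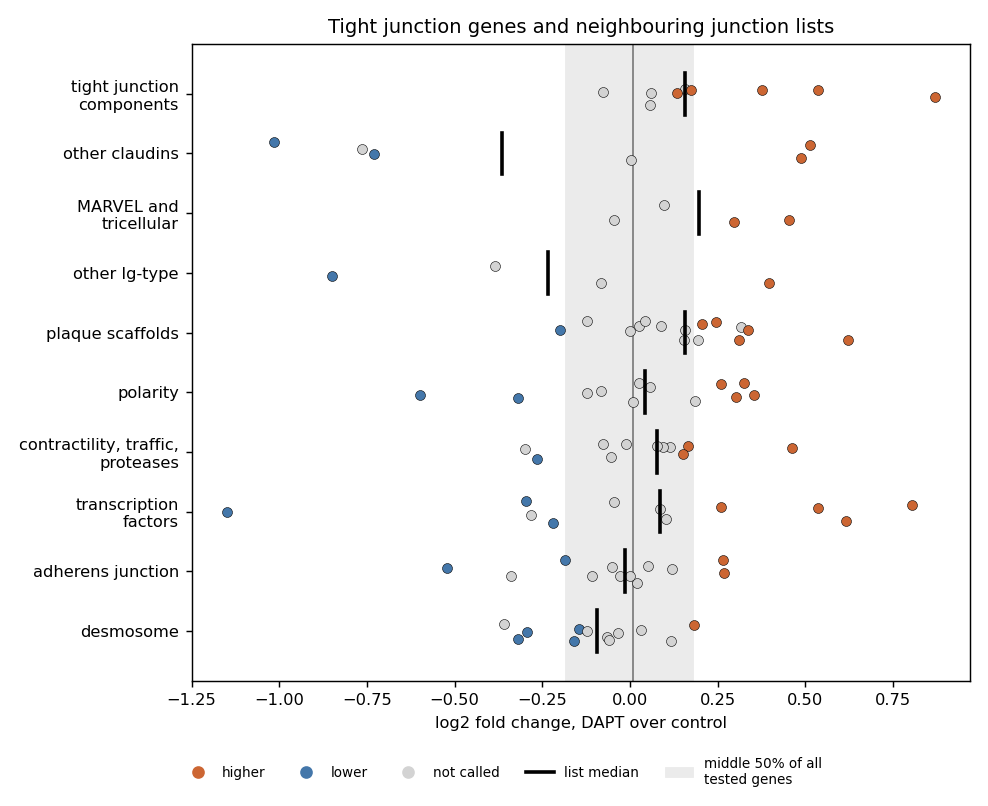
Log2 fold change (DAPT over control) of each tested gene in the 9 tight junction components and in lists of other junction genes, with the list median as a bar and the middle 50% of all tested genes, from -0.18 to 0.18, shaded. Orange and blue mark genes that were called higher and lower, and the median of the 9 genes is 0.16 and that of the desmosome list is -0.094.

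The 9 genes were set beside the other cell junctions of these cells. Of 12 adherens junction genes 2 were higher and 2 lower, and the median was -0.015 on the log2 scale. These counts were equal without control replicate 1. Over all tested genes, 17.2% were higher and 18% lower, and 18% and 19.1% without that library. *CDH1*, E-cadherin, rose by 0.27 (adjusted p = 0.000139, edgeR) and *AFDN*, the ZO-1 partner afadin, by 0.26 (adjusted p = 0.000707), while *NECTIN1* fell by 0.52 (adjusted p = 4.44e-08) and *CTNNB1*, β-catenin, by 0.19 (adjusted p = 0.00428). Of 12 tested desmosome genes 1 was higher and 4 were lower, with a median of -0.094. The plakophilin *PKP1* fell by 0.32 (adjusted p = 7.61e-05), desmoplakin (*DSP*) by 0.29 (adjusted p = 0.000132) and *DSC3* by 0.16 (adjusted p = 0.0132), and *PKP2* rose by 0.18 (adjusted p = 0.0146). The call for *PKP2* was lost without control replicate 2 (0.076), control replicate 3 (0.0593) or DAPT replicate 1 (0.0811), and that for *DSC3* without DAPT replicate 2 (0.0823). Without control replicate 1, 2 desmosome genes were higher and 5 lower. Scaling by library size alone gave 2 higher and 2 lower, where 23.0% of all tested genes were higher and 14.4% lower. The difference between the lists was not tested.

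As a description of pattern, the genes closest to *TJP1* across the 6 libraries were *LRIF1*, *ZBED3* and *PSMA3-AS1*. Their centred log2 CPM lay at root mean square distances of 0.030, 0.032 and 0.034 from that of *TJP1*, the smallest of 14198 genes with a mean of at least 1 CPM. They rose by 0.41, 0.44 and 0.39 on the log2 scale. For *F11R*, whose change did not pass the test, the closest were *ATP6V1D*, *ATP6V1E1* and *MRPS22*, at 0.011, 0.014 and 0.018. These distances rest on 6 libraries.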

How the data were processed

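RNA of 3 control and 3 DAPT libraries of HSC-4 cells was sequenced as single-end reads from an mRNA library. The authors used Trim Galore for trimming and HISAT2 for mapping to GRCh38. Per the file headers, featureCounts 1.6.3 then summed reads over exons by Ensembl gene and strand. The deposited values are these raw whole-number counts. Under the counter's default settings, reads mapping to several places or overlapping several genes were not counted. The submitters' processing notes name HTSeq and DESeq2 instead, while the paper names edgeR. The headers show forward-strand counting, and the directional kit named usually gives reads from the opposite strand. Protein-coding genes held 97.3% to 97.5% of the counts.

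Of 58884 genes, 58472 were matched by identifier to symbols of GENCODE release 44, and coordinates are those of the count tables. Conditions and replicate numbers came from the labels. Within a group the libraries differed by more than sampling noise, with a chi-square per gene between 1.58 and 5.68. The groups were compared in edgeR 4.0.16 (R 4.3.3) by a robust quasi-likelihood fit after TMM normalization and its low-count filter (minimum count 10), with Benjamini-Hochberg adjustment over 15001 genes and a threshold of 0.05. CPM was scaled by TMM library sizes, RPKM is CPM divided by exon length in kilobases, and standard errors and 95% intervals came from the test statistic. Alternatives were RLE normalization, library size alone, DESeq2 1.42.0, limma-voom (limma 3.58.1), both other filters, each library left out and a replicate block. Figures were drawn with matplotlib 3.10.9.

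The 9 genes and the other lists were chosen with earlier results of these data known. Genes named outside the 9 were the up to 4 called genes with the largest absolute log2 fold change in each list, *HES1*, *HEY1* and the 3 nearest profiles of the 9 genes' smallest p in each direction, with exceptions marked in the text. Protein sequences were not used here.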

Additional observations from a re-analysis of the deposited data

How the results depend on the processing

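Among 13 alternatives (other normalizations, filters and tools, a replicate block and each library left out), *OCLN*, *TJP1* and *TJP3* kept their direction and stayed past the threshold in all 13, with log2 fold changes from 0.69 to 1.04, from 0.32 to 0.43 and from 0.45 to 0.59. *CLDN12* passed in 10 (0.15 to 0.22) and *CGN* in 3 (0.11 to 0.18). *CLDN4* passed in 4 (0.098 to 0.22), and *CLDN1*, *CLDN7* and *F11R* in 0, with adjusted p-values of at least 0.134, 0.0902 and 0.163. No gene of the 9 changed sign. The number of the 9 that were higher was 3 to 5 in the fits that each lacked a library, and 3 without control replicate 2, control replicate 3 or DAPT replicate 2. In the fits that lacked a library, 12.4% to 18.0% of all tested genes were higher. The number of the 9 was 4 with RLE normalization, where 16.9% of 15001 tested genes were higher. It was also 4 with DESeq2, where 5.63% of 29228 genes were higher. Those genes were not filtered for low counts, so that share is not comparable with the others. The number of the 9 was 6 with scaling by library size alone, where 23.0% of all tested genes were higher, against 17.2% in the main fit. That scaling moved the median of all genes from 0.0096 to 0.056 and the share of called genes that were higher from 48.7% to 61.5%. Of the other tight junction genes, here with the transcription factors, 14 were higher and 8 lower in DESeq2, where 5.63% and 6.75% of all 29228 genes were. In edgeR, 21 of the 31 called genes of these lists kept their call in all 6 fits that left out a library. Desmosome genes were 2 higher and 2 lower with library size alone, 2 higher with DESeq2 and 2 higher with limma-voom. Leaving out a library gave 0 to 2 higher and 2 to 5 lower desmosome genes, where 14.3% to 19.1% of all tested genes were lower. The cause of these moves was not tested. The depth limits *OCLN* and *TJP3* most, with at most 207 reads per library.

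The labels do not say whether equal replicate numbers mark paired samples. After subtraction of the group means, libraries with equal numbers correlated at 0.0173, 0.0252 and 0.00382 across 15001 genes. With 3 libraries per group, these values cannot decide whether the samples were paired. With the replicate block, 5 of the 9 genes were higher, with *CLDN4* past the threshold and *CGN* not (0.13, adjusted p = 0.0527, edgeR). Over all genes, 2558 were higher and 2737 lower with the block, against 2574 and 2707 without it, and of the other tight junction genes 20 were higher and 9 lower. In 4 of 6 libraries the best correlation was with the library of the same number.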
